A study of Homo sapiens with 9 samples.

Results

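In all, 3 libraries of this series carry the label MDA-MB-453, and they are the only ones that do: a control, a library labelled GSK343 and a library labelled shEZH2. They are 3 of 9 RNA-seq libraries, the other 6 being the same 3 conditions in MDA-MB-231 and MDA-MB-436. Genes were taken as members if they had at least 1 RPKM (reads scaled to gene length and library size) in at least 1 of the 3 libraries. This gave 13123 of 58037 genes, of which 11309 are protein coding. The series asks how gene expression responds in triple-negative breast cancer lines when EZH2 is knocked down or its activity is inhibited. GSK343 is a compound that blocks the EZH2 enzyme, and shEZH2 is a short hairpin RNA against the EZH2 transcript; no dose, time or hairpin sequence is given in the sources used here. The sample labels call the control untreated, whereas its column in the table is headed as a control hairpin, so which of the 2 it was is not settled. Each condition is a single library with no replicate, so a difference between 2 of these libraries has no p-value. Both targeted libraries are compared with the same control, so a gene that is off in the control differs in both comparisons at once.

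EZH2 is the enzyme of PRC2, the Polycomb complex that also contains SUZ12 and EED and places methyl groups on lysine 27 of histone H3. The mark keeps developmental genes silent, among them HOX genes and homeobox factors such as MSX1 and NKX2-5, and loss of PRC2 activity is known mainly for the release of silenced genes. EZH1 is a paralogous enzyme that can take the catalytic place. An inhibitor of the enzyme acts on the protein, while a hairpin lowers the transcript itself. MDA-MB-453 is described as a luminal line, whereas MDA-MB-231 and MDA-MB-436 are mesenchymal-like.

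The label was checked against marker genes first. Of 18 marker genes of the luminal type, 10 in the control and 12 in each targeted library labelled MDA-MB-453 reached 1 RPKM, against 9 to 12 in the other 6 libraries. PIP, a secreted protein of apocrine breast cells, was listed at 0 in all 9 libraries. Mesenchymal-like markers reached 1 RPKM in 9 of 10 cases in each of the 9 libraries. Vimentin (VIM), the mesenchymal intermediate filament, was at 401, 210 and 233 RPKM in the 3 conditions. These markers therefore do not show the line that the label names, and the libraries are called MDA-MB-453-labelled below. In these 3 libraries leukocyte markers summed to 3.81 to 8.47 RPKM, nearly all of it CD14, endothelial markers to 0.277 to 0.514 and fibroblast markers to 1.82 to 3.25; basal markers reached 1 RPKM in 1 or 2 of 6 cases.

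The targeted MDA-MB-453-labelled libraries lay close to an average of the other 2 lines, the shEZH2-labelled library more closely than the GSK343-labelled one. This was measured over 7474 genes with at least 5 RPKM on average in the 4 targeted libraries of both other lines, by measures chosen after the values were seen. In the shEZH2-labelled library 99.1% of these genes were within 1.25-fold of the mean of those 4 libraries, 2 labelled GSK343 and 2 labelled shEZH2. No protein-coding gene with at least 5 RPKM in either lay 2-fold off that mean on the scale of RPKM + 1 (0 above, 0 below). The mean of only the 2 shEZH2-labelled libraries gave 97.1%, with MMP1 and MMP3 2-fold above it. The GSK343-labelled library matched the same 4-library mean for 92.0% of genes, with 3 protein-coding genes 2-fold below and 0 above. The control matched the mean of the other 2 controls for 40.4%. For scale, the same measure was 28.2% between the controls of both other lines, 65.9% between the 2 targeted libraries of MDA-MB-231 and 94.4% between those of MDA-MB-436.

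For 3 single genes the shEZH2-labelled library was within 1.25-fold of that mean, and the GSK343-labelled one for CSF2 but not for MMP3 or EZH2. CSF2, the granulocyte-macrophage growth factor, averaged 105 RPKM over the 4 targeted libraries of the other lines and was at 104 in both MDA-MB-453-labelled targeted libraries, although those 4 libraries ranged from 16.8 to 254. MMP3, the matrix protease stromelysin, averaged 51.9 over values of 194, 12.2, 0.855 and 0.823, and was at 51.2 in the shEZH2-labelled library and 30.1 in the GSK343-labelled one. EZH2 averaged 16.8 and was at 16.2 in the shEZH2-labelled library and 7.99 in the GSK343-labelled one. Genes of a single line sat at an intermediate level: 63 genes had at least 20 RPKM in the shEZH2-labelled library of MDA-MB-231 and under 1 in that of MDA-MB-436, and in the MDA-MB-453-labelled library all 63 were present at 0.25 to 0.75 of the MDA-MB-231 value (median 0.469). The 37 genes found the other way round had a median ratio of 0.455, and again all 37 lay in that range. In the control the medians were 0.409 over 47 genes and 0.402 over 35 genes. What these libraries contain was not tested further, and cells of a line cannot be told apart here from RNA or reads of several lines.

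**Figure D1:**
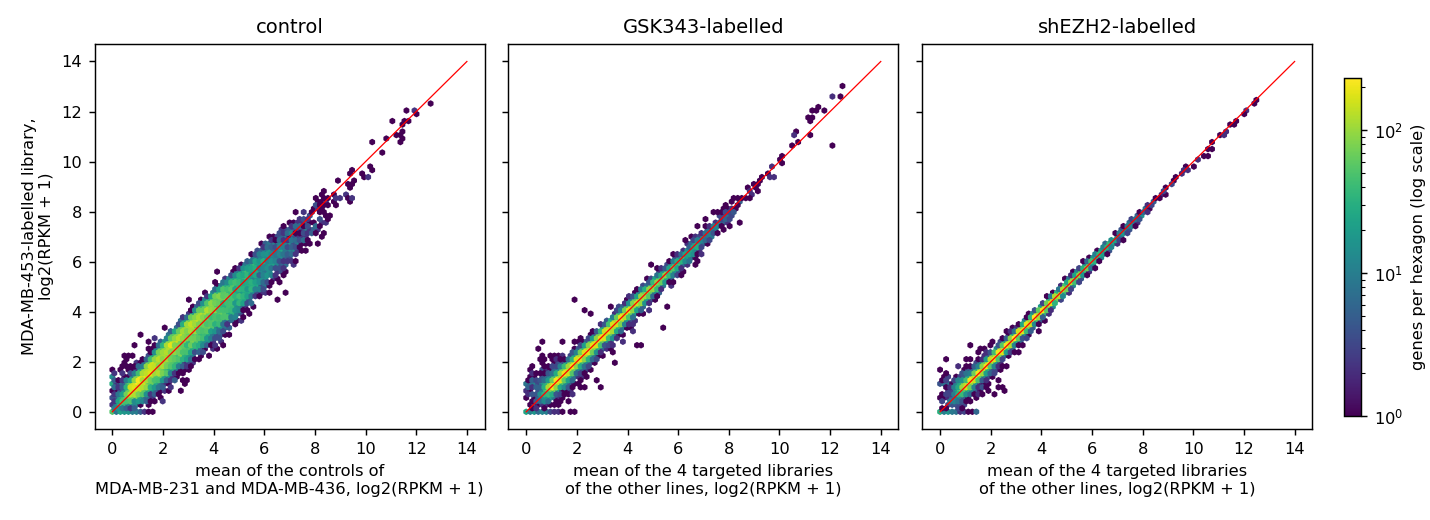
Level of every member gene in each MDA-MB-453-labelled library (vertical axis) against a mean of other lines (horizontal axis; their 2 controls for the control, their 4 targeted libraries for the other panels), both as log2(RPKM + 1); colour gives the number of genes per hexagon on a log scale and the red line marks equality. Of 7474 genes, 99.1% lie within 1.25-fold of the line in the shEZH2-labelled library, 92.0% in the GSK343-labelled library and 40.4% in the control.

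Read depth was even. The deposited values correspond to 16111867 reads assigned to genes in the control, 15342298 in the GSK343-labelled and 16626100 in the shEZH2-labelled library, against 14757043 to 18283426 over all 9 libraries. Genes above 0 numbered 23900, 26612 and 26726. The intervals given below for ratios of 2 libraries are exact conditional 95% intervals from these reads; they cover counting error only, and reads without molecular identifiers are not independent molecules.

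EZH2 was lowest in the library labelled with the inhibitor, not in the one labelled with the hairpin. Its level was 42.3 RPKM in the control, 7.99 in the GSK343-labelled and 16.2 in the shEZH2-labelled library. The ratio to the control was 0.189 (0.172 to 0.207) in the GSK343-labelled library and lay between 0.359 and 0.410 in the shEZH2-labelled library, and the direct ratio of the 2 targeted libraries lay between 0.445 and 0.545. The same order held in MDA-MB-231 (27.4, 5.77 and 16.4 RPKM), and in MDA-MB-436 the shEZH2-labelled library was near its control (38.9, 7.53 and 37.4). The hairpin is the agent that acts on the transcript, yet EZH2 was lowest under the inhibitor label in each line. Under the shEZH2 label it was also below the control in the MDA-MB-453-labelled libraries and in MDA-MB-231. Whether labels were exchanged was not tested, and the targeted groups are named by label throughout. The other core genes moved less: SUZ12 was at 22.0, 14.3 and 14.2 RPKM, EED at 4.68, 3.10 and 3.64, and EZH1 at 4.52, 5.52 and 5.02. The PRC2 accessory factor PHF19 was at 36.1, 21.1 and 23.8 RPKM, and PHF1, another accessory factor, at 4.26, 6.98 and 7.66. Over 11 measured PRC2 genes the median of the mean difference of both labels from the control was -0.59 on the log2(RPKM + 1) scale, against 0.04 over all members. Their median GC content (described below) was 42.0%, and members of like GC (median 42.1%) had a median difference of -0.24. Centred on GC the PRC2 median was -0.21. EZH2 was the single PRC2 gene at least 2-fold lower under both labels, against 0.739% of all members.

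Far more genes were higher than lower after either intervention. A change is counted here as at least 2-fold on the scale of RPKM + 1, which understates changes of low genes. Under the GSK343 label 669 genes (5.10% of members) were higher than the control and 177 (1.35%) lower. Under the shEZH2 label 652 (4.97%) were higher and 144 (1.10%) lower. Under both labels 447 (3.41%) were higher and 97 (0.739%) lower, and 0 genes were 2-fold in opposite directions. Rescaling the libraries to a common sum gave 512 higher and 321 lower under the GSK343 label, and rescaling by median ratios 557 and 218. The 447 held 376 protein-coding genes, 35 lincRNA or antisense genes, 19 pseudogenes and 10 short RNA genes. Of the 397 for which reads could be counted, 383 had an interval that excluded equality under both labels, including all 331 protein-coding ones. These genes were picked by the same values, so that outcome was nearly fixed in advance and is no support. The 97 lower genes held only 50 protein-coding genes and 32 short RNA genes, and 52 of 86 with reads lay beyond counting error.

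The 12 genes highest above the control were led by LCN2 and PDZK1IP1 and are not of 1 class. In bulk RNA a change in the share of cells of a type and a change in RNA per cell cannot be told apart. LCN2, a secreted protein that withholds siderophore iron from bacteria (chromosome 9, 128149071 to 128153455), was at 13.0 RPKM in the control, 254 in the GSK343-labelled and 219 in the shEZH2-labelled library, a log2 difference of 4.19 and 3.97. PDZK1IP1, a small membrane protein raised in many carcinomas (chromosome 1, 47183593 to 47191044), was at 2.89, 68.8 and 70.4 RPKM. Both targeted libraries stood far above the control for these 2 genes, and the lower bounds of the counting intervals of their ratios were 15.1 and 18.6. MMP3 went from 1.58 to 30.1 and 51.2 RPKM, CSF2 from 7.65 to 104 and 104, and the stress cytokine GDF15 from 1.40 to 28.8 and 21.6. The acute-phase proteins SAA1 and SAA2 went from 21.7 to 217 and 262 and from 2.34 to 20.1 and 27.3. GPNMB, a lysosomal glycoprotein, was at 2.65, 31.3 and 24.7 RPKM, CSF3, the granulocyte growth factor, at 18.6, 123 and 109, and IFI6, an interferon-induced mitochondrial protein, at 13.1, 74.1 and 91.6. In each of these genes both targeted libraries were above the control, and the 2 targeted values differed by less than 2-fold. The remaining 2 of the 12 largest increases are the microRNA gene MIR324, with 1, 15 and 20 reads, and the processed pseudogene RP5-1052M9.1, with 0, 28 and 8 reads, whose values are uncertain because reads of near-identical copies can be assigned there.

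**Figure D2:**
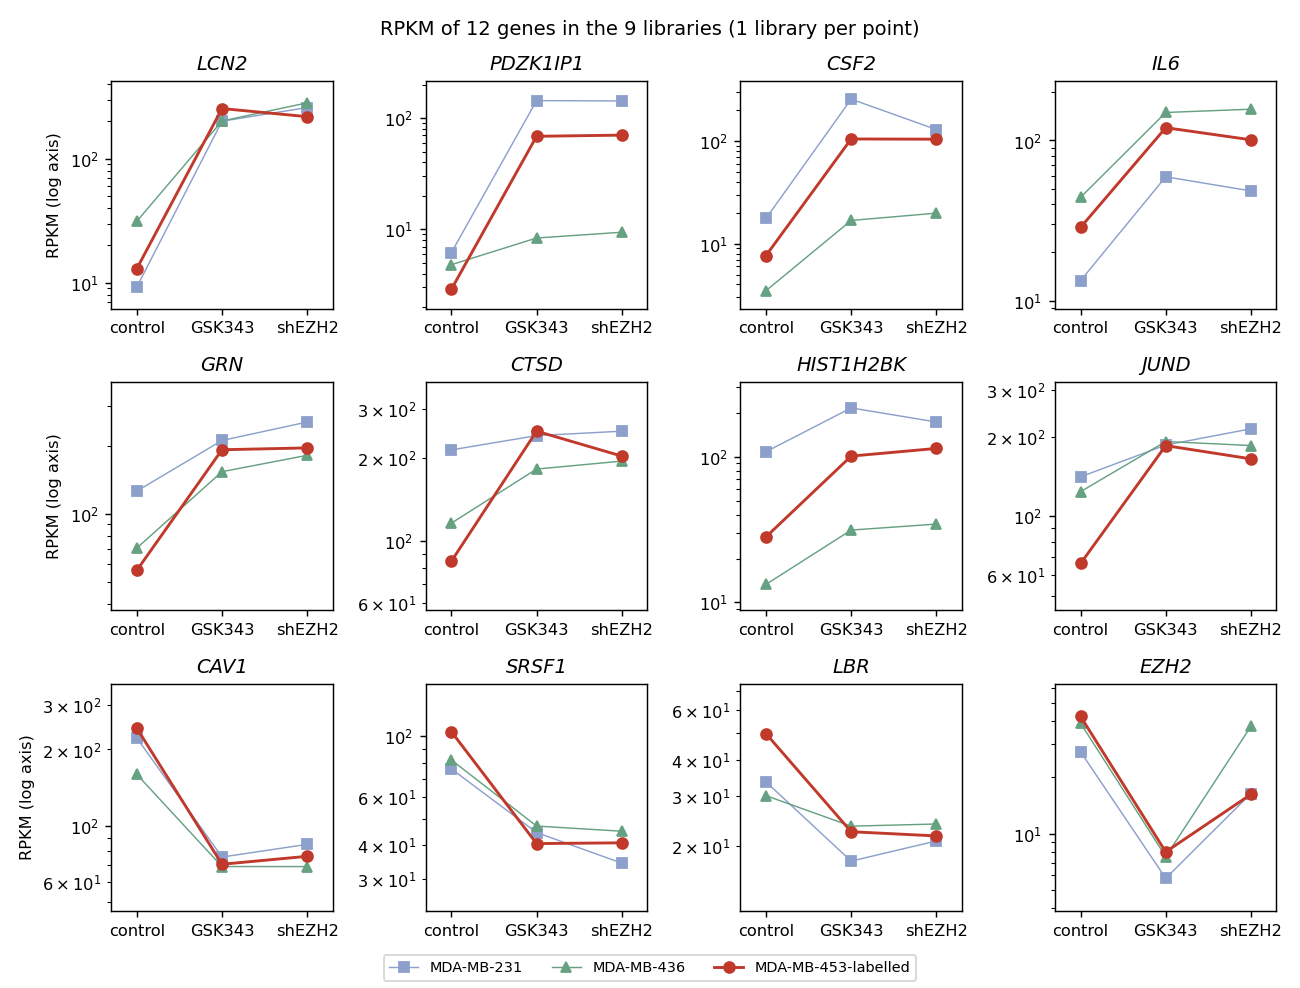
RPKM (log axis) of 12 genes in the control, GSK343-labelled and shEZH2-labelled library of each line, 1 library per point with no replicate, MDA-MB-453-labelled libraries as red circles. In the targeted libraries LCN2 was at 254 and 219 RPKM and CAV1 at 70.6 and 75.9 RPKM; in the control, GRN, CTSD and JUND lie below and SRSF1 and LBR above both other lines.

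Cytokines and chemokines that are targets of NF-kB, the transcription factor of inflammatory signalling, formed the group with the most genes higher. Of 20 measured, 15 were at least 2-fold higher under both labels and 0 lower, with a median difference of 1.63. Over all members 3.41% were higher and 0.739% lower, with a median of 0.04. IL6 (chosen after its values were seen), the acute inflammatory cytokine, was at 28.6, 120 and 101 RPKM, a ratio between 3.91 and 4.51 under the GSK343 label and between 3.28 and 3.79 under the shEZH2 label. CXCL1, a neutrophil chemokine, was at 63.6, 328 and 285 RPKM, and CXCL8 (also chosen after its values were seen), another, at 72.1, 202 and 261. PTGS2, the inducible prostaglandin synthase, was at 2.78, 18.7 and 15.4 RPKM. The other 5 members were IL1A at 80.2, 60.2 and 71.9 RPKM, CCL2 at 5.75, 4.10 and 6.91, CXCL5 and CXCL6, at 0.905 to 2.21, and LIF. LIF, at 22.4, 38.9 and 46.5 RPKM, was short of 2-fold under the GSK343 label only. Of 16 NF-kB subunits and feedback regulators 3 were higher and 0 lower (median 0.71), among them TNFAIP3, an inhibitor of the pathway, at 22.3, 52.6 and 60.0 RPKM and RELB, a subunit, at 10.9, 24.9 and 25.6.

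Promoters of CSF2, CXCL1, CXCL8, IL6 and LCN2, all higher under both labels, are shown with their matches to NF-kB motifs. They are RefSeq sequences of GRCh38.p14 upstream of the RefSeq start, cut to parts free of annotated exons, 5′ to 3′ on the plus strand, with matches to NF-kB motifs on either strand in capitals (GGGA, any 4 bases, CC; or GGAATTTCC). For LCN2 the RefSeq start lies downstream of the outermost GENCODE 29 start, so its stretch falls inside the gene span printed above, and IL6 likewise lies inside its GENCODE 29 span.
CSF2, chr5:132073679-132073788: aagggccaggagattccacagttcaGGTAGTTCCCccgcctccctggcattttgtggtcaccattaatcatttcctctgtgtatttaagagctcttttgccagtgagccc
CXCL1, chr4:73869283-73869392: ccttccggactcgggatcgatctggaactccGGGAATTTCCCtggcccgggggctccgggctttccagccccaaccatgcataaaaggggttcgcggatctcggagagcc
CXCL8, chr4:73740396-73740505: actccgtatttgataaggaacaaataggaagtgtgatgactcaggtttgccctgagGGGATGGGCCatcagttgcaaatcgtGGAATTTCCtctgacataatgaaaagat
IL6, chr7:22727037-22727146: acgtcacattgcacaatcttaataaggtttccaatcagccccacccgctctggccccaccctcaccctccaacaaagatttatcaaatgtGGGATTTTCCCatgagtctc
LCN2, chr9:128149265-128149374: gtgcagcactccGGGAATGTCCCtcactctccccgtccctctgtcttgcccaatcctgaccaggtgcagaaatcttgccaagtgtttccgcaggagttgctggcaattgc
Of the 15 members of the cytokine group with a promoter in the table, 11 (73.3%) held a match to either motif in the 250 bases before the start, and 7 (46.7%) held GGAATTTCC, whose matches overlap those of the longer motif in part. Over all 27305 promoters of the table the shares were 22.2% and 0.428%, and over 9111 members 28.0% and 0.461%. Of 273 promoters of genes higher under both labels 37.0% held either motif. The share was 41.8% of the 98 that remained higher when centred on GC (described below) and 34.3% of the 175 that did not. Transcripts of the higher genes had a median GC of 59.6%, against 48.3% over members. The part of GC in these shares was not tested. The cytokine list was chosen as targets of NF-kB. Its high share of such motifs was therefore nearly fixed in advance and is no result of these libraries. A match is a description of letters, not evidence of a bound factor.

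Several other groups had more genes 2-fold higher than lower, to be read against the 3.41% of all members that were higher under both labels, the 0.739% that were lower and the median of 0.04. Of 10 measured acute-phase and antimicrobial genes 4 were at least 2-fold higher under both labels (LCN2, SAA1, SAA2 and the complement protein C3, which was at 22.2, 107 and 90.0 RPKM) and 0 lower. Of 23 lysosome genes 8 were higher and 0 lower, with a median difference of 0.75: the growth factor and lysosomal protein GRN was at 56.2, 192 and 196 RPKM, the protease CTSD at 84.8, 249 and 203, and the glucosidase GAA at 6.67, 19.4 and 19.0. Of 22 autophagy genes 4 were higher, among them the cargo receptor SQSTM1 at 112, 228 and 243 RPKM. Of 15 histone genes 6 were higher and 0 lower, among them HIST1H2BK at 28.2, 101 and 114 RPKM and HIST1H2BJ at 3.01, 13.0 and 15.2. Of 18 genes of the ATF4 and CHOP stress response 5 were higher, among them DDIT3, which encodes CHOP, at 9.31, 30.7 and 32.7 RPKM and PPP1R15A, a phosphatase subunit it induces, at 46.3, 139 and 137.

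Of 27 immediate-early genes 7 were higher under both labels and 1 lower: EGR1, a zinc-finger factor, was at 6.53, 28.2 and 30.7 RPKM and IER3 at 4.99, 29.1 and 27.6, while CTGF, a matrix-associated growth factor, was at 99.8, 31.4 and 43.4. Of 34 interferon-stimulated genes 5 were higher, among them ISG15, a ubiquitin-like protein, at 32.4, 84.1 and 88.5 RPKM; the median of that list was 0.31, and 0 were lower. Of 8 MHC class II genes 3 were higher, with the invariant chain CD74 at 71.4, 165 and 173 RPKM. For comparison with these lists, 3.41% of all members were higher under both labels and 0.739% lower. CD74 is a gene of MDA-MB-231 among the other lines (232 RPKM in that control, 0.430 in MDA-MB-436). FTH1, the ferritin heavy chain, was at 362, 1547 and 1170 RPKM, and the cyclin-dependent kinase inhibitor CDKN1A at 23.8, 69.7 and 74.8.

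The lower protein-coding genes included CAV1, 3 genes of the nuclear lamina and 2 splicing factors. Among all members 0.739% were lower under both labels and 3.41% higher, with a median of 0.04. CAV1, the main caveolae protein (chromosome 7, 116524785 to 116561184), was at 242 RPKM in the control, 70.6 in the GSK343-labelled and 75.9 in the shEZH2-labelled library, a log2 difference of -1.77 and -1.66. Both targeted libraries lay below the control, with ratios of 0.282 to 0.301 and 0.303 to 0.323 by their counting intervals. The caveolae list as a whole was not lower as deposited. Of 7 measured genes 1 was at least 2-fold higher under both labels and 1 lower, with a median of 0.19 (-0.38 centred on GC, as described below). The higher one was EHD2, an ATPase of the caveolar neck, at 30.1, 77.6 and 70.0 RPKM. The nuclear lamina list had 3 of 11 genes at least 2-fold lower and 0 higher: LMNB1, lamin B1, at 66.9, 26.9 and 24.1 RPKM, the lamin B receptor LBR at 49.6, 22.4 and 21.7, and the lamina-associated protein TMPO at 61.0, 27.3 and 28.4. Of 18 SR splicing factors and hnRNPs 2 were 2-fold lower, SRSF1 at 104, 40.5 and 40.8 RPKM and SRSF2 at 67.5, 32.5 and 32.4; the median of the list was -0.67. Heat-shock proteins had 1 of 9 lower, the mitochondrial chaperonin HSPD1 at 128, 62.2 and 60.1 RPKM, and a median of -0.73. Of 48 mitosis genes 0 were 2-fold lower or higher under both labels, but their median was -0.42, and of 42 DNA replication genes 1 was lower (median -0.24), the replicative helicase subunit MCM6 at 37.4, 16.3 and 17.8 RPKM.

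The largest decreases by size were otherwise mostly short RNA genes resting on few reads. Besides EZH2 and CAV1, the 12 largest held MIR6739, RNU5E-1, RNVU1-4, RNVU1-6, RNVU1-15, SNORD63, VTRNA1-3 and the mitochondrial tRNA gene MT-TE, which had 3 to 24 reads in the control and 0 to 10 in a targeted library, and the unnamed transcripts RP11-386I14.4 and CTC-429P9.2 with 21 and 27 reads in the control. For MIR6739, SNORD63 and VTRNA1-3 the counting interval of the ratio held 1 under both labels. In such short genes a single read gives a high RPKM.

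Genes that Polycomb is known to silence were mostly higher than the control, by less than 2-fold. Of 20 measured developmental factors 18 were higher under both labels and 1 lower, and of 17 HOX genes 12 and 2. These counts hold differences of any size, and their share over all members is not given. The median GC content (described below) was 59.1% for the first list and 54.2% for the HOX genes. Members of like GC to the first list (median 59.8%) had a median difference of 0.48. At least 2-fold under both labels, 3.41% of all members were higher and 0.739% lower. In the limma model described below 8 of the 20 passed as higher and 1 as lower, and 4 and 0 of the 17. Over all genes tested 16.6% passed as higher and 11.6% as lower. Centred on GC 1 and 0 passed as higher, against 557 of 12929 genes tested. Of the 17 measured HOX genes 0 were at least 2-fold higher or lower under both labels (median 0.36); the largest difference was that of HOXB9, at 7.96, 15.3 and 15.1 RPKM. Of the 20 developmental factors 1 was at least 2-fold higher (median 0.53), the homeobox gene MSX1 at 8.40, 21.4 and 18.9 RPKM, and NKX2-5, a homeobox gene known from heart development, was at 8.71, 20.8 and 18.4. Both are genes of MDA-MB-436 among the other lines: MSX1 was listed at 0 in the control of MDA-MB-231 and at 31.6 RPKM in that of MDA-MB-436, and NKX2-5 at 0.199 and 40.5. In MDA-MB-436 NKX2-5 was at 43.0 and 41.1 RPKM in the targeted libraries. The mean of the 4 targeted libraries was 20.7 RPKM for MSX1 and 21.1 for NKX2-5, near the MDA-MB-453-labelled values, while the mean of the 2 controls was 15.8 and 20.3, well above the MDA-MB-453-labelled control. Of 13 measured tumour suppressors described as silenced by EZH2 0 were higher and 1 lower, the guidance factor SLIT2 at 10.8, 4.27 and 4.63 RPKM (median 0.09). KDM6B, which removes the H3K27 mark, was at 6.45, 15.6 and 15.9 RPKM, and of 17 luminal breast genes 1 was higher, the epithelial factor SPDEF at 5.90, 19.4 and 20.1.

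The differences from the control followed the base composition of the transcripts. GC content, the share of G and C, was taken from the longest transcript of each gene and was known for 13082 members (99.7%). In the lowest of 10 equal parts (deciles) of members by GC (median 36.9%) the median difference was -0.39 for the GSK343 and -0.37 for the shEZH2 label; in the highest decile (median 64.1%) it was 0.59 and 0.63. It was higher in each decile than in the one below. The number of genes at least 2-fold higher under both labels went from 7 of 1309 in the lowest to 174 of 1309 in the highest decile, and the number lower from 16 to 3. Across members, Spearman's rho between the mean difference and GC was 0.634 in the MDA-MB-453-labelled libraries, 0.033 in MDA-MB-231 and -0.059 in MDA-MB-436. The points are genes of the same libraries and are not independent replicates, so no p-value is given.

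Sequences of 4 genes with changes of similar size and different composition are shown to make this visible. The stretches below are bases 301 to 450 of the longest coding sequence in GENCODE 29, 5′ to 3′ on the coding strand, with each G and C in capitals. JUND, a subunit of the AP-1 factor (chromosome 19, 18279760 to 18281622), and MSX1 (chromosome 4, 4859666 to 4863936) were higher in the targeted libraries; the mitotic kinesin CENPE (chromosome 4, 103105806 to 103198409) and the spindle protein DLGAP5 (chromosome 14, 55148112 to 55191678) were lower.
JUND: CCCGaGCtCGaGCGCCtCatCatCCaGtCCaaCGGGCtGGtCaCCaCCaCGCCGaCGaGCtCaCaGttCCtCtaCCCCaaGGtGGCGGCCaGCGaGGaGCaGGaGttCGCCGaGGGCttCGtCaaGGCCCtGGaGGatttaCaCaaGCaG
MSX1: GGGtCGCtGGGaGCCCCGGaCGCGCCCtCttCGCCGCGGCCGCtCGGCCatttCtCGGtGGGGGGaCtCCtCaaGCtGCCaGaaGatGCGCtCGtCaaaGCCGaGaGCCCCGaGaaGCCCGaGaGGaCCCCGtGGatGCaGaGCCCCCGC
CENPE: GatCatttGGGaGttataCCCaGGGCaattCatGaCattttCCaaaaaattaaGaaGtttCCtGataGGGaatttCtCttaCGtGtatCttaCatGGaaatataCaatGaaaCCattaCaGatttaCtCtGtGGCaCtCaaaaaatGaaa
DLGAP5: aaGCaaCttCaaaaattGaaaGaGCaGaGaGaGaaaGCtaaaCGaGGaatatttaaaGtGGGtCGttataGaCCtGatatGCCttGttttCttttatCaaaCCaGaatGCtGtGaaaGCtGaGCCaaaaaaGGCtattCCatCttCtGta
Of the 150 bases shown, 96 are G or C in JUND and 107 in MSX1, against 50 in CENPE and 55 in DLGAP5. JUND was at 66.3, 185 and 165 RPKM in the control, GSK343-labelled and shEZH2-labelled library, and at 141 (MDA-MB-231) and 124 (MDA-MB-436) in the other controls. CENPE was at 18.8, 8.56 and 9.33 RPKM, and 12.4 and 6.42 in the other controls. DLGAP5 was at 54.1, 22.0 and 26.7 RPKM. For JUND the MDA-MB-453-labelled control lay below both other controls, and for CENPE and DLGAP5 above both.

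The library that departed by base composition was the control. Each MDA-MB-453-labelled library was set against the mean of the other 2 lines in the same condition: Spearman's rho of that difference with GC was -0.739 in the control, -0.021 in the GSK343-labelled and -0.138 in the shEZH2-labelled library. The control's median departure went from 0.50 in the lowest decile by GC to -0.54 in the highest; the medians stayed between 0.02 and 0.05 in the GSK343-labelled and between 0.02 and 0.09 in the shEZH2-labelled library. The control lay at least 1.25-fold outside the range of the other 2 controls, above it for 9.78% and below it for 9.14% of members, against 1.55% and 1.39% in the GSK343-labelled and 0.846% and 0.404% in the shEZH2-labelled library. Of the 447 genes higher under both labels, the control was below the other controls in 126 (28.2%), and of the 97 lower genes it was above them in 48 (49.5%). When the control's ratio to the mean of the other controls was centred within 20 bins of GC, 83.3% of 7471 genes lay within 1.25-fold of it, up from 40.4% uncentred. The cause was not tested.

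**Figure D3:**
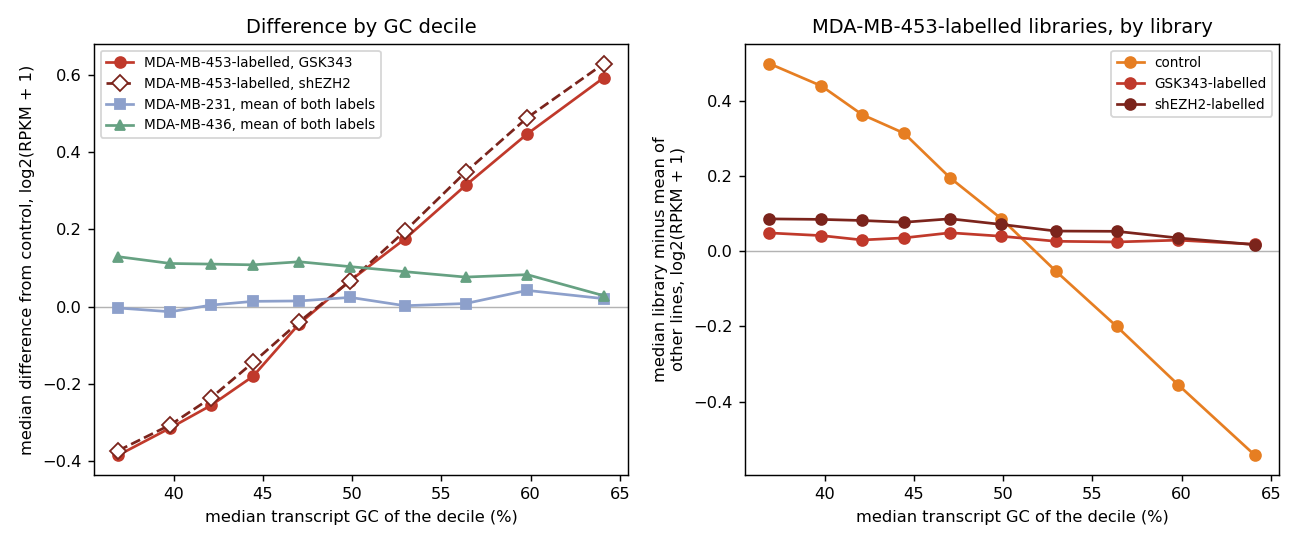
Left, median difference from the control in log2(RPKM + 1) for members in deciles of transcript GC content (percent), for both labels in the MDA-MB-453-labelled libraries and for the mean of both labels in the other lines; right, median of each MDA-MB-453-labelled library minus the mean of the other lines in the same condition. The lines that involve the MDA-MB-453-labelled control slope with GC, from -0.39 to 0.59 under the GSK343 label and from 0.50 to -0.54 in the control.

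Measured against genes of like GC (the median of 20 bins taken off), fewer genes differed. At least 2-fold under both labels were 214 genes higher and 57 lower, an alternative chosen after the data were seen. Of the 447 higher genes 169 remained and 278 did not; of the 97 lower genes 34 remained and 63 did not. The NF-kB cytokine group counted 14 genes where it had 15 (median 1.50), acute-phase genes 4 as before (median 0.99) and histone genes 6 as before (median 0.67). The cytokine genes that passed limma (described below) as higher went from 17 to 12 of 20. Over all genes tested, those that passed as higher went from 2150 of 12965 to 557 of 12929. The NF-kB subunits and regulators went from 3 to 1 by fold (median 0.32) and from 10 to 1 by limma. LCN2 differed by 3.72, PDZK1IP1 by 3.76, CSF2 by 3.51, CAV1 by -1.65 and LMNB1 by -1.45. The count went from 8 to 4 for lysosome genes, from 7 to 3 for immediate-early genes, from 5 to 2 for interferon-stimulated genes, from 4 to 1 for autophagy genes, from 5 to 4 for ATF4 and CHOP genes, and from 3 to 1 for MHC class II genes and, among those lower, for lamina genes. It went from 2 to 1 for SR factors and hnRNPs and from 1 to 0 for heat-shock, DNA replication, developmental and tumour suppressor genes. Medians changed sign for the tumour suppressors (0.09 to -0.37), caveolae (0.19 to -0.38), collagens, laminins and integrins (0.24 to -0.13), ribosomal proteins (0.06 to -0.08), glycolysis and hypoxia genes (0.04 to -0.03) and EGFR family genes (-0.11 to 0.0007). Medians nearer to 0 were found for the PRC2 genes (-0.21), the developmental factors (0.13), SR factors and hnRNPs (-0.35), mitosis genes (-0.30) and HOX genes (0.20). MSX1 was at 0.65, JUND at 0.74, CENPE at -0.62 and SUZ12 at -0.21, all short of 2-fold. Of the 117 genes 2-fold higher in the label as well as in the mean of the other 2 lines, 94 were among those that remained.

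**Figure D4:**
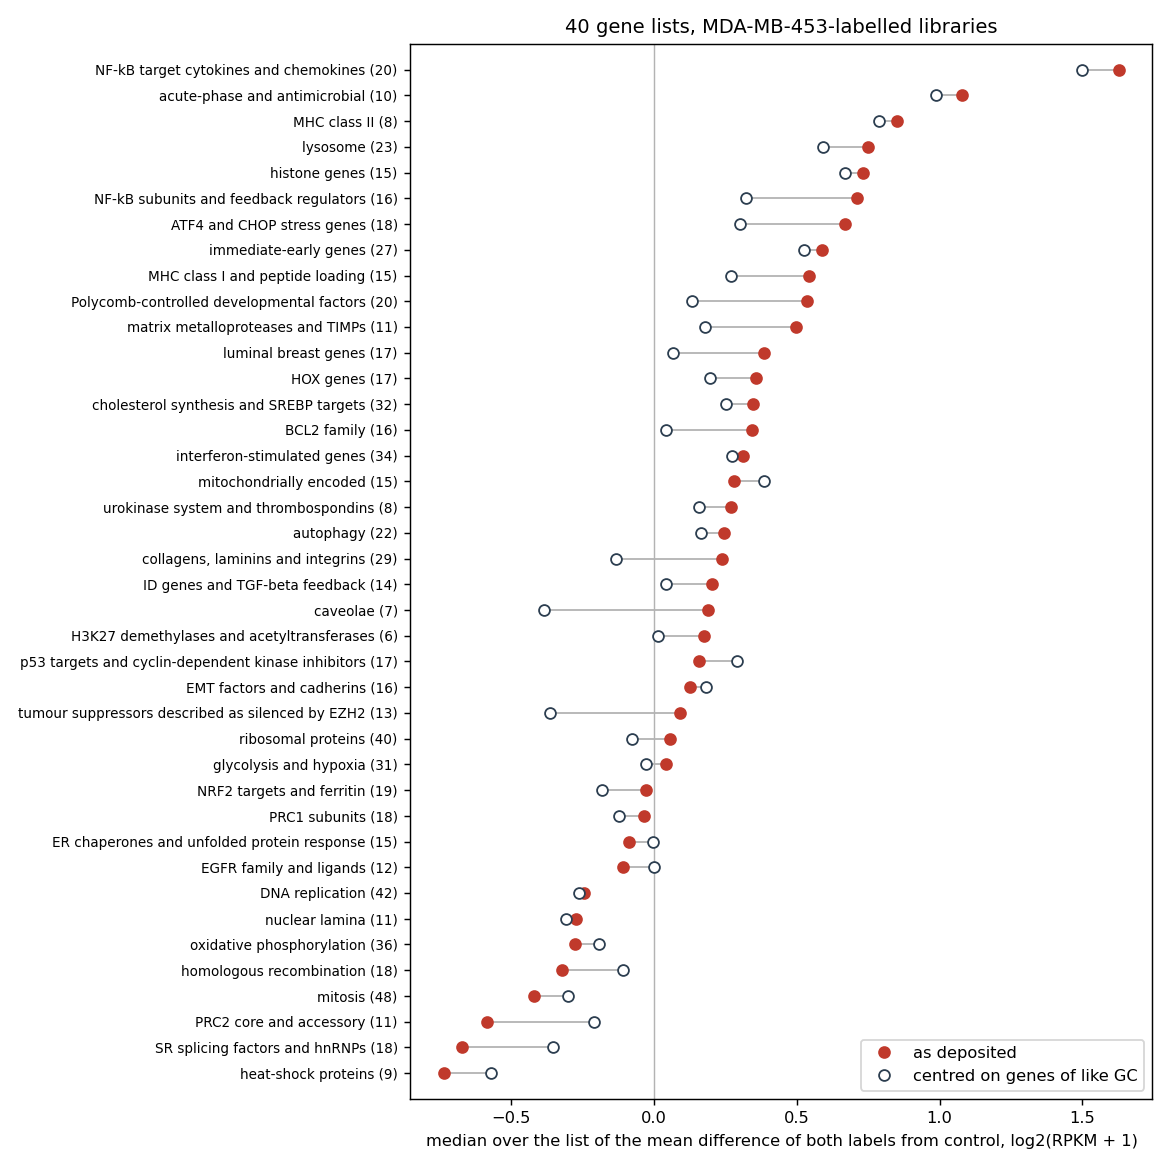
Median, over the measured genes of each of 40 lists (number in brackets), of the mean log2(RPKM + 1) difference of both labels from the MDA-MB-453-labelled control; filled points are the deposited values and open points are centred on genes of like GC content. NF-kB cytokines are at 1.63 and 1.50, while the developmental factors go from 0.53 to 0.13 and the PRC2 genes from -0.59 to -0.21.

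The 2 interventions differed little from each other within this label, as in MDA-MB-436. Over the same members, 54 genes were at least 2-fold apart between the labels in MDA-MB-436, 228 in MDA-MB-231 and 126 here. Directly compared, 73 genes (0.556%) were at least 2-fold higher in the GSK343-labelled and 53 (0.404%) in the shEZH2-labelled library, 6 of these 126 protein coding. Of 122 with reads, 31 lay beyond counting error. The 12 largest differences were short RNA genes, pseudogenes and unnamed transcripts, among them MIR186 with 5 and 0 reads, SNORA70 with 1 and 14, and RP5-1052M9.1 with 28 and 8, plus 1 protein-coding gene. That gene was SEC61B, a subunit of the channel that moves proteins into the endoplasmic reticulum (chromosome 9, 99222064 to 99230615), at 34.7 RPKM in the control, 8.65 in the GSK343-labelled and 37.8 in the shEZH2-labelled library, a ratio of the labels between 0.192 and 0.272. Its level in the 6 other libraries was 27.4 to 60.1 RPKM, so the single low value is that of the GSK343-labelled library. FTL, the ferritin light chain (also named after its values were seen), was at 1719, 1646 and 3847 RPKM. KDELR1, a receptor that returns proteins to the endoplasmic reticulum (named after its values were seen), was at 162 and 112 RPKM in the GSK343- and shEZH2-labelled library, but at 71.4 and 210 in MDA-MB-231 and 35.1 and 119 in MDA-MB-436. Of 28 protein-coding genes whose mean over the other 2 lines differed at least 2-fold between the labels, with at least 5 RPKM, 0 did so here. Of them 22 had the same sign, and the median difference was 1.25 there and 0.26 here. They were picked by their difference in the other lines, so a smaller one here follows in part from the choice. Some hardly differed in MDA-MB-436, such as MMP3 (0.855 and 0.823 RPKM) and IGFBP4 (3.95 and 6.43), while EZH2 and KDELR1 differed in both lines. MMP3 had the opposite sign: 194 against 12.2 RPKM in MDA-MB-231, and 30.1 against 51.2 under this label. MMP1, the interstitial collagenase, likewise was at 2585 and 861 RPKM in MDA-MB-231 and at 680 and 901 here.

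A model that pools the spread over lines gives p-values, but the spread between controls was not measured, since no line has a second control. In a limma model of all 9 libraries, in which every line has its own control level and its own targeted level, the difference between the 2 labels within a line serves as the error (3 residual degrees of freedom), and the single control is assumed to vary as much. The departure of this control with GC, given above, does not enter that error, so the calls describe a difference from this 1 control library. Of 12965 genes tested, 2150 (16.6%) were higher and 1502 (11.6%) lower in the targeted MDA-MB-453-labelled libraries at an adjusted p under 0.05. They included most of the tested genes that were 2-fold higher or lower under both labels. That overlap was nearly fixed in advance and is no support, since those genes were picked by the same 2 differences whose mean was tested. PDZK1IP1 was higher by 4.18 ± 0.28 on the log2 scale (half-width of the 95% confidence interval; limma adjusted p = 8.44e-05), LCN2 by 4.08 ± 0.58, IL6 by 1.91 ± 0.40 and GRN by 1.77 ± 0.40 (limma adjusted p = 0.00315, 0.00386 and 0.00419). CAV1 differed by -1.71 ± 0.31 and SRSF1 by -1.33 ± 0.39 (limma adjusted p = 0.00364 and 0.00579). EZH2 (-1.80 ± 2.19, limma adjusted p = 0.177) and MMP3 (3.97 ± 3.17, limma adjusted p = 0.0654) did not pass. With median-ratio rescaling the split was 1831 against 2047, and with a common sum 1595 against 1834, both with more genes lower than higher. The number of calls rests on single libraries: 3652 in all, it was 1 without the GSK343-labelled library of this label (PDZK1IP1), 193 without the shEZH2-labelled one, 1729 and 1730 without either targeted library of MDA-MB-436, and 6255 and 6257 without either of MDA-MB-231. Centred on GC it was 557 higher and 354 lower; SUZ12 (limma adjusted p = 0.0131, and 0.222 centred), CENPE (0.00983 and 0.0767) and NKX2-5 (0.00538 and 0.0875) then did not pass, while LCN2, CSF2, IL6 and CAV1 did.

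The targeted MDA-MB-453-labelled libraries lay close to the mean of the targeted libraries they were set against, and their control is 1 library. For that reason the test below cannot settle whether a response is particular to this label, and none was shown to be. The limma test of its response against the mean response of both other lines called 0 genes (0%), with a smallest adjusted p of 0.0781 and 3526 genes at an unadjusted p under 0.05 (811 when centred on GC, again with 0 called). Nearest to the threshold were genes that the MDA-MB-453-labelled control held low: PDZK1IP1 (difference 1.63 ± 0.34), the ribosomal protein gene RPL41 (2.06 ± 0.50), the nucleoside diphosphate kinase NME2 (1.70 ± 0.35), the imprinted gene PHLDA2 (1.34 ± 0.36), the cell-cycle kinase PKMYT1 and the clone gene RP5-908M14.9, with limma adjusted p of 0.0781 to 0.0848, none passing. RPL41 was at 21.8 RPKM in this control and 93.6 to 95.4 in the others, and at 77.4 and 86.5 in the targeted libraries; its many pseudogenes make its value uncertain, and NME2 overlaps a read-through gene. In the other direction stood the cadherin CDH2 (difference -1.18 ± 0.46), the sulfotransferase HS2ST1, the RNA helicase SKIV2L2, the clone gene AC069499.1 and the pseudogene RNU7-49P, none passing. The call depends on the libraries and genes used: without the GSK343- or shEZH2-labelled library of MDA-MB-231 it was 3199 and 3091 genes, with no filter on low values 617, with a mean of at least 5 RPKM 21, all higher, and against MDA-MB-436 alone 1, PDZK1IP1 (3.42, limma adjusted p = 0.00324).

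Most of the higher genes were also higher in the other lines. Of the 447 genes higher under both labels, 335 were higher than the control in all 4 comparisons within the other lines (74.9%, against 26.1% of all members). The 4 comparisons share 2 controls. The targeted MDA-MB-453-labelled libraries also lay close to the mean of the 4 targeted libraries in these comparisons, as given above. A shared direction is therefore no independent support from another line. The 447 genes had medians of 0.69 in MDA-MB-231 and 0.64 in MDA-MB-436 against 1.29 under this label. Of them, 94 and 104 were 2-fold higher under both labels there. By the mean of both labels, 227 reached 2-fold in neither line. Of the 97 lower genes 46 were lower in all 4 (47.4%, against 16.2% of all members). The median was larger in the other lines for the 169 higher genes that remained after centring on GC (1.11 in MDA-MB-231 and 0.91 in MDA-MB-436) than for the 278 that did not (0.57 and 0.55). Across members the mean difference here and that of the other lines had a Pearson r of 0.593, and 0.740 after centring on GC (description over genes, which share libraries and are not independent).

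The genes farthest outside the other controls give the control's departure gene by gene. Above both other controls, with at least 5 RPKM in a control, stood the spindle protein ASPM at 34.1 RPKM against 16.3 and 16.5, and otherwise short genes: MIR6835, the mitochondrial tRNA genes MT-TR (44.9 against 14.7 and 18.3), MT-TT and MT-TW, and 1 clone gene without a gene name. Below both stood RPL41, PHLDA2 at 1.10 RPKM against 6.44 and 5.86, the ribosomal protein gene RPS15 at 26.0 against 80.9 and 72.1, the pseudogene PPIAP22, MIR324 and MT-TH. In the targeted libraries ASPM was at 17.2 and 18.4 RPKM and RPS15 at 45.1 and 46.8, within or near the range of the other lines (9.51 to 23.0 and 45.5 to 62.2).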

How the data were processed

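The authors deposited 1 table of RPKM (reads scaled to gene length and library size) for 58037 genes and 9 libraries, and all 9 columns were used (0 unused). Per the submitters' processing notes, STAR, HTSeq and GRCh38 were used; versions, annotation and strand setting are missing from the sources used here, which leaves overlapping and antisense genes uncertain. Reads were recovered with GENCODE 29 exon lengths (100% of low values whole within 0.05 of a read) and used for counting intervals alone.

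Differences are of log2(RPKM + 1). The model across 12965 genes with at least 1 RPKM in at least 3 libraries was fitted with limma 3.58.1 in R 4.3.3 with a mean-variance trend, two-sided, Benjamini-Hochberg adjusted (threshold 0.05). Each of the 40 gene lists (865 genes) is described by its counts and median.

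Named genes are EZH2, EZH1, SUZ12 and EED, the 12 largest differences per direction at least 2-fold under both labels, 6 per direction between the labels, up to 4 per list, 6 per direction for the difference from the other lines, and the 6 per direction whose control lay farthest outside the other controls; others are said to be chosen after their values were seen or stand in a list or set described. Some genes that this rule or the marker lists hold are not reported here. The members and lists were chosen with earlier results of these data known. Centring on GC and the comparisons with means of the other lines were added after the values were seen.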

Additional observations from a re-analysis of the deposited data

Results flagged for a closer look

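In all, 3 genes at least 2-fold off the control under both labels moved the opposite way in each of the 4 comparisons within the other lines; the limma test of the difference from the other lines called none of them, and the opposite signs themselves were not tested. PHLDA2 differed by 1.2058 on the log2(RPKM + 1) scale, with 1.10 RPKM in the control, 3.69 in the GSK343-labelled and 4.03 in the shEZH2-labelled library, against differences of -0.22, -0.16, -0.04 and -0.13 elsewhere. NME2 differed by 1.0605, with 3.87, 9.16 and 9.14 RPKM, against differences of -0.71, -0.86, -0.51 and -0.46. In both, the control lay below the other controls and the transcript is rich in GC (63.1% and 60.9%); centred on GC the differences were 0.63 and 0.54. The part of GC in them was not tested further. The pseudogene RNU6-817P differed by -1.1333, with 1.19 RPKM in the control and 0 in both targeted libraries, values near those of a few reads.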

How the results depend on the processing

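Totals of genes at least 2-fold off the control were 846 (GSK343 label), 796 (shEZH2 label) and 544 (both), and 126 genes differed between the labels. A pseudocount of 0.1 gave 1753, 1754, 1252 and 321. A pseudocount of 0.5 gave 1265 for the shEZH2 label, 851 for both and 208 between the labels. A mean RPKM of at least 5 gave 464, 454, 348 and 11. Centring on GC gave 493, 391 and 271 against the control. Counting intervals left 31 of the genes between the labels. The cause of these shifts was not tested. The limma total of 3652 within the label was 1759 with no filter and 911 centred on GC, and leaving out 1 targeted library gave 1 to 6257. The limma total of 0 for the difference from the other lines was 617 with no filter, 21 with a mean of at least 5 RPKM and 1 against MDA-MB-436 alone, and leaving out 1 targeted library gave 0 to 3199; a lone library is then assumed to vary like the others. With a replicate block by intervention the totals were 3593 and 0. Controls were not left out, since each line has 1. Among 191 limma values of named genes 73 no longer passed when centred on GC. Depth limits the short RNA genes, whose named members rest on few reads.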
